A study of Rattus norvegicus with 458 samples.

Results

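The small RNA of the rat cerebellum was compared with that of the cerebrum. The 20 libraries, 10 labelled Cerebellum and 10 labelled Cerebrum, are part of a body atlas of 215 libraries from 23 tissues, and were chosen by tissue label alone. All rats were naive Sprague Dawley animals of 12-13 weeks, 5 males numbered 2 to 6 and 5 females numbered 7 to 11, and no treatment, genotype or transgene sets the groups apart. Each rat gave both tissues, so every comparison was made within animals. RNA was bulk tissue RNA, so fewer cells of a type and less of a miRNA per cell cannot be told apart.

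MicroRNAs (miRNAs) are short RNAs cut from a hairpin precursor, which can yield a mature strand from its 5' arm (5p) and one from its 3' arm (3p). They guide Argonaute proteins to messenger RNAs, mainly through the seed, bases 2 to 8 from the 5' end, so miRNAs with the same seed share most of their predicted targets. The cerebellum is built largely of small granule neurons with Purkinje cells as its output, whereas the cerebrum holds the pyramidal neurons and interneurons of the cortex. miR-124 is the classical neuronal miRNA, miR-132 and miR-212 are transcribed together after neuronal activity, and miR-221 and miR-222 share a primary transcript and repress the cell cycle inhibitor p27.

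Total counts per library ran from 2207930 to 7506562, RNA integrity numbers from 7.6 to 8.3, and the 10 most counted miRNA names took 61.3 to 69.5% of the reads of a library. Levels are given as counts per 1000000 miRNA counts (CPM). The marker fixed for brain, miR-124-3p, was present in all 20 libraries at 4676 CPM or more, and miR-873-5p at 15.6 CPM or more. In 1 library, the cerebrum of rat 9, the second of 2 sequencing runs stood apart. A median of 57.2% of the reads of a miRNA name started 1 base early there, against at most 0.0822% in every other run of these libraries and 0.0621% in the first run of that library. Results that rest on read starts are therefore given with and without that run. Its correlation with the other cerebrum libraries was also the lowest, with a median r of 0.914 across 799 names, whereas all other libraries had 0.938 to 0.979 with those of their own tissue.

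The sequences of the miRNAs with the largest differences are shown first, since relatives by seed moved together in several cases. They are RefSeq mature sequences of assembly GRCr8, where 378 of the 452 single mature names tested had an entry, and capitals mark the seed. Higher in cerebellum were miR-195-5p, miR-497-5p and miR-16-5p, which share a seed, and miR-26a-5p, miR-204-5p, miR-10b-5p, miR-192-5p, miR-194-5p, miR-181a-5p and let-7a-5p.
miR-195-5p: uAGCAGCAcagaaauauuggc
miR-497-5p: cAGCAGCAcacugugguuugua
miR-16-5p: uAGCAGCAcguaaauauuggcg
miR-26a-5p: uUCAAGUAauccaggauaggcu
miR-204-5p: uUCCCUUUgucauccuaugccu
miR-10b-5p: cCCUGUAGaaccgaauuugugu
miR-192-5p: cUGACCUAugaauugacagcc
miR-194-5p: uGUAACAGcaacuccaugugga
miR-181a-5p: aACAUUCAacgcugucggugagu
let-7a-5p: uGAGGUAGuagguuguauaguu

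Lower in cerebellum were miR-221-3p and miR-222-3p with a common seed, miR-132-3p and miR-212-3p with another, and miR-873-5p, miR-139-5p, miR-128-3p and miR-22-3p. miR-92b-3p and miR-92a-3p, also lower, carry the seed of miR-25-3p, which was higher.
miR-221-3p: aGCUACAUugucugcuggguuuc
miR-222-3p: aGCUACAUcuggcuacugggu
miR-132-3p: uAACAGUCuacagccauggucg
miR-212-3p: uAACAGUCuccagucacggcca
miR-873-5p: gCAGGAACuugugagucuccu
miR-139-5p: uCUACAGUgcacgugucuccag
miR-128-3p: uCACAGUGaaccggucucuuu
miR-22-3p: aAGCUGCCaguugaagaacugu
miR-92b-3p: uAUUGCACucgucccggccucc
miR-92a-3p: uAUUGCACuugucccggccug
miR-25-3p: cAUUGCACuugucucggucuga

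Of the 608 names with enough counts to test, most differed between the tissues, and the largest changes were downward in cerebellum. By edgeR's quasi-likelihood test with the rat as a block and upper quartile scaling, 202 names (33.2%) were higher in cerebellum and 152 (25%) lower at an adjusted p of 0.05. How many names count as higher depends on the scaling. Trimmed mean (TMM) scaling gave 155 higher and 226 lower, DESeq2 198 and 184, and library totals alone 94 and 333. All 4 scalings called 94 names (15.5%) higher and 152 (25%) lower. The median log2 fold change over all names was 0.26 with upper quartile scaling, -0.06 with TMM, 0.08 with DESeq2 and -0.61 with library totals. A log2 fold change printed here is on the upper quartile scale, and its median excess over the value from library totals, and so over the ratio of the CPM values, was 0.87. In CPM, 57 names (9.38%) lay higher in every cerebellum library than in any cerebrum library, and 200 (32.9%) lay lower.

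**Figure D1:**
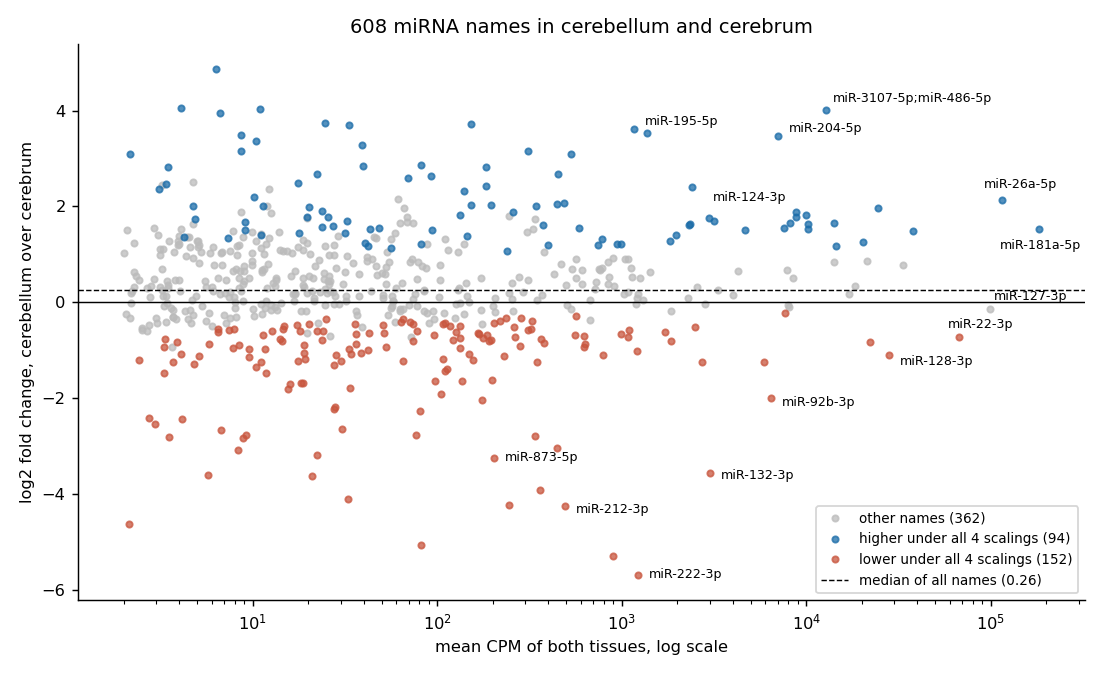
Log2 fold change (cerebellum over cerebrum, upper quartile scaling) of 608 miRNA names against their mean CPM in both tissues on a log axis. Coloured points are the 94 names higher and 152 lower under all 4 scalings, the dashed line is the median of 0.26, and the points farthest from it lie below, led by miR-222-3p.

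The counts of calls include 31 higher and 10 lower composite names, in which the authors joined mature miRNAs that their reads could not separate. Apart from 1 composite that holds most reads of miR-486-5p, single mature names are described from here on. Of these, 39 higher and 105 lower were past the threshold, reached 20 CPM and did not overlap between the tissues. All 39 and all 105 were called under all 4 scalings, which their choice largely fixed. All 152 lower names were so called, and no overlap in CPM is already a difference on the scale of library totals. Without the shifted run of the cerebrum of rat 9, 605 names were tested, 200 (33.1%) were higher and 151 (25%) lower, and 198 and 148 of these were calls made with it. Then 37 of the 39 and 103 of the 105 still did not overlap.

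Among single names with a mean of at least 20 CPM and no overlap, the largest rises in cerebellum were those of miR-486-3p, of miR-195 and miR-497 from neighbouring hairpins, and of miR-204. miR-195-5p, of the miR-15/16 family that represses cell cycle genes, had 1874, 2009 and 2240 CPM in the lowest, median and highest cerebellum library and 270.0, 296 and 364 CPM in cerebrum. No library of either tissue came near the other, and the mean was 6.68-fold higher in cerebellum (log2 fold change 3.62 ± 0.11 SE, adjusted p = 1.88e-10 in edgeR, 10 rats). miR-497-5p, from the neighbouring hairpin, had 1699, 2446 and 2954 CPM against 287, 355 and 459 CPM, a log2 fold change of 3.54 ± 0.13. Their hairpins lie on chromosome 10 of GRCr8, Mir497 at 55450171-55450239 and Mir195 at 55450495-55450581 on the plus strand, with starts 324 bases apart. The opposite strand of miR-195, miR-195-3p, moved with it from a far lower level, with a median of 68.4 CPM in cerebellum and 12.2 CPM in cerebrum (log2 fold change 3.28 ± 0.11).

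miR-486 lies in the ankyrin gene Ank1 and is abundant in red blood cells and muscle. miR-486-3p had 31.5, 58.9 and 73.9 CPM in cerebellum and 6.38, 8.32 and 9.97 CPM in cerebrum, with a log2 fold change of 3.70 ± 0.18 (adjusted p = 6.30e-09). Most reads of the 5p strand were counted under miR-3107-5p;miR-486-5p, which joins the strand with a mouse entry and was named here after its values were seen. It had 18747, 22745 and 28708 CPM against 2217, 2608 and 3033 CPM, so it was among the 10 most counted names of cerebellum, and its log2 fold change was 4.02 ± 0.12. miR-451-5p, the red blood cell miRNA cut without Dicer, did not follow. It had 56.4, 76.6 and 108 CPM in cerebellum and 56.9, 83.3 and 129.9 CPM in cerebrum, overlapping throughout, and its log2 fold change was 0.75 with upper quartile scaling but -0.13 with library totals.

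miR-204-5p, encoded within Trpm3 on chromosome 1 (hairpin 229743461-229743570, plus strand, GRCr8) and abundant in the choroid plexus, had 6840, 10522 and 18475 CPM in cerebellum against 1523, 1906 and 2492 CPM in cerebrum. The groups did not overlap, as the choice of names required, and the log2 fold change was 3.47 ± 0.17 (edgeR adjusted p = 7.32e-09). In cerebellum the libraries of rats 2, 3, 6 and 10 held more than 16000 CPM, and the same 4 held the most miR-34c-5p, a miRNA of ciliated epithelium, at 1234 to 1670 CPM against at most 705 CPM in the other 6. In the remaining 6 cerebellum libraries miR-204-5p still lay at 6840 CPM or more. The part of choroid plexus in this result was not tested.

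miR-192-5p and miR-194-5p, a hairpin pair with starts 185 bases apart on chromosome 1 and best known from gut, liver and kidney epithelium, were higher together. miR-192-5p had 2303, 3639 and 4073 CPM in cerebellum and 612, 1267 and 1696 CPM in cerebrum (log2 fold change 2.40 ± 0.09). miR-194-5p had 379, 516 and 603 CPM against 73.3, 105 and 124 CPM (3.16 ± 0.09, adjusted p = 1.74e-10). Neither overlapped between the tissues, as the choice of names required. miR-10b-5p, whose hairpin lies within the bounds of Hoxd4 and which is transcribed in the posterior body and hindbrain, had 663, 791 and 1310 CPM against 51, 189 and 337 CPM (3.09 ± 0.24). It did overlap once the shifted run was left out, since the remaining run of the cerebrum of rat 9 held 775 CPM.

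Also among the 12 with the largest rise were miR-187-3p (2.83 ± 0.12), miR-378a-5p from the gene of the metabolic coactivator PGC-1β (2.84 ± 0.12) and miR-28-5p from the Lpp gene (2.32 ± 0.14). The 12th, miR-26a-5p, which lies in a gene of a small C-terminal domain phosphatase, was a highly abundant name. It rose to 141126, 161902 and 182520 CPM in cerebellum from 62839, 67832 and 73905 CPM in cerebrum, a mean 2.4-fold higher (2.13 ± 0.12, adjusted p = 1.76e-08).

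**Figure D2:**
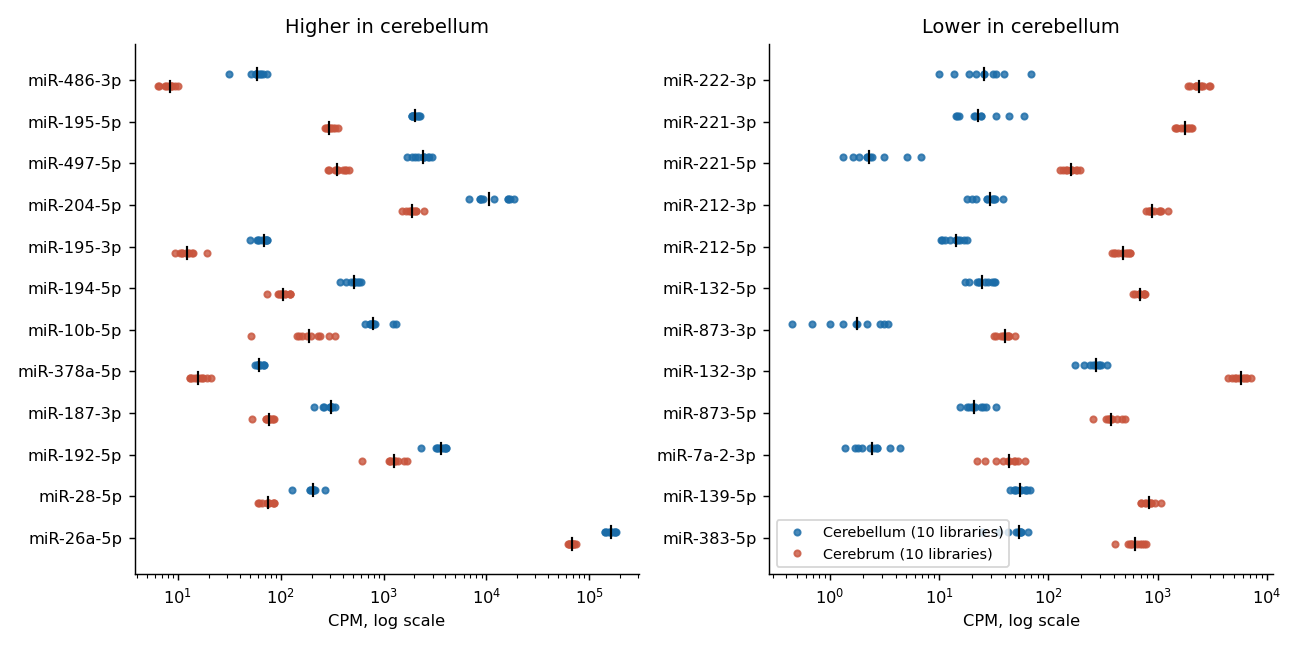
CPM of the 12 single miRNAs with the largest rise (left) and fall (right) in cerebellum, on log axes, with 1 point per library, 10 per tissue, and a black bar at the median. Rows were chosen for no overlap between the tissues, with miR-195-5p at 1874 to 2240 CPM against 270.0 to 364 and miR-222-3p at 9.98 to 69.8 against 1917 to 3014.

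Among single names chosen in the same way, the falls in cerebellum were steeper. They were led by both miRNAs of the neighbouring hairpins Mir221 and Mir222 and of Mir132 and Mir212. miR-222-3p had 9.98, 26 and 69.8 CPM in cerebellum and 1917, 2372 and 3014 CPM in cerebrum, and its mean was 83.5-fold lower in cerebellum (log2 fold change -5.68 ± 0.32, adjusted p = 2.22e-08). miR-221-3p had 14.2, 22.6 and 59.8 CPM against 1449, 1788 and 2085 CPM, a mean 65-fold lower (-5.29 ± 0.26). In every rat the cerebellum library was far below the cerebrum library for both. Within cerebellum, rat 7 was the highest for miR-222-3p at 69.8 CPM, with the next at 39.4 CPM. Mir222 (6022621-6022723) and Mir221 (6023182-6023290) lie on the plus strand of chromosome X of GRCr8 with starts 561 bases apart, within a pair of annotated lncRNAs. The other strands were lower too, miR-221-5p at -5.05 and miR-222-5p at -4.63 on the log2 scale, although miR-222-5p reached only 5.63 CPM in its highest cerebrum library.

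The activity-linked pair followed. miR-132-3p, which promotes neurite growth, had 176, 271 and 342 CPM in cerebellum and 4419, 5767 and 7082 CPM in cerebrum, a mean 21.6-fold lower (-3.56 ± 0.14, adjusted p = 1.09e-09). miR-212-3p, with the same seed, had 18.1, 29.1 and 38.5 CPM against 789, 896 and 1242 CPM, a mean 34.2-fold lower (-4.24 ± 0.13). All 4 strands of the 2 hairpins fell without overlap, with miR-132-5p at -3.92 ± 0.13 and miR-212-5p at -4.23 ± 0.12. The median of this list was -4.08 against 0.26 for all names tested, of which 25% fell. Mir132 lies at 60522033-60522133 on the plus strand of chromosome 10 of GRCr8.

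miR-873-5p, encoded within the neuronal gene Lingo2 (Mir873, chromosome 5, 56153104-56153180, minus strand, GRCr8), marked the cerebrum. It had 15.6, 20.9 and 32.9 CPM in cerebellum and 254, 371 and 504 CPM in cerebrum, a mean 17.2-fold lower without overlap (-3.24 ± 0.14, adjusted p = 2.87e-09), and its 3p strand fell by 3.62 ± 0.33. miR-139-5p, encoded within the phosphodiesterase gene Pde2a on chromosome 1, had 44.7, 55.4 and 67.5 CPM against 703, 832 and 1079 CPM (-3.03 ± 0.13). miR-383-5p, of the sarcoglycan gene Sgcz, fell from a median of 619 CPM in cerebrum to 54 CPM (-2.79 ± 0.20), and miR-7a-2-3p from 43.4 to 2.44 CPM (-3.19 ± 0.20). The libraries of the tissues did not overlap for any of these, which was a condition of their choice.

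By difference in CPM rather than fold, the names past the threshold that led in both directions were abundant miRNAs. miR-181a-5p, the most counted name of both tissues, had 194205, 218016 and 273001 CPM in cerebellum and 124863, 140930 and 172266 CPM in cerebrum (1.52 ± 0.13). miR-125a-5p (1.96 ± 0.12) and miR-30a-5p (1.48 ± 0.09) were also higher in every cerebellum library. In the other direction, miR-22-3p had 28049, 34147 and 36444 CPM against 96943, 98925 and 109866 CPM (-0.73 ± 0.08, adjusted p = 6.16e-06). miR-128-3p, a neuronal miRNA that restrains excitability, had 7566, 11647 and 17299 CPM against 34122, 45462 and 60350 CPM (-1.09 ± 0.15). miR-92b-3p had 675, 1662 and 1894 CPM against 8625, 11259 and 15929 CPM, a mean 7.27-fold lower, and miR-434-3p and miR-138-5p, the dendritic miRNA that limits spine size, changed by -0.83 ± 0.13 and -1.25 ± 0.15. Each of these 8 lay apart in all 20 libraries.

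The neuron-associated miRNAs did not move as a block. Of 22 members tested, 8 were higher and 11 lower in cerebellum, 5 and 11 under all 4 scalings, with a median log2 fold change of -0.68 against 0.26 for all names. The share that rose is near the 33.2% of all names (15.5% under all 4 scalings), and 25% of all names fell. miR-124-3p rose, with 10925, 11621 and 13081 CPM in cerebellum against 4676, 5923 and 6691 CPM in cerebrum, a mean 2.01-fold higher (1.89 ± 0.09, adjusted p = 7.06e-09), and every cerebellum library lay above every cerebrum library. miR-129-1-3p rose with it (2.02 ± 0.09), while miR-137-3p, which regulates synaptic genes, fell by 1.12 ± 0.18 and miR-7a-5p by 1.38 ± 0.15. miR-9a-5p, a miRNA of neural progenitors and neurons, overlapped between the tissues at 28648 to 35137 CPM and 18611 to 39462 CPM, and its log2 fold change of 0.77 turned to -0.10 with library totals. Of the rodent miR-344 family, known from the forebrain, 2 of the 3 tested members fell, led by miR-344b-1-3p with medians of 15.8 and 143 CPM (-2.27 ± 0.15). The other, miR-344a-3p, did not pass the test (-0.30 ± 0.27).

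The miRNAs of the imprinted Dlk1-Dio3 locus, a cluster transcribed from the maternal chromosome and abundant in brain, were mostly lower. Of 70 members tested, 42 fell, all under all 4 scalings like every name lower with upper quartile scaling. Only 2 rose, 1 of them (miR-381-3p, 1.29 ± 0.11) under all 4. Of all names tested 25% fell and 33.2% rose, 25% and 15.5% under all 4 scalings. Their median was -0.45 against 0.26 for all names. Their summed level was 83660, 93008 and 106136 CPM in cerebellum against 173342, 204212 and 242471 CPM in cerebrum. In CPM, 54 members lay lower in every cerebellum library, beside 32.9% of all names tested. The size of the change varied along the locus. miR-667-5p, at no more than 6.13 CPM in any library of these tissues, changed by -2.41 ± 0.28 and miR-376b-3p by -1.61 ± 0.14, whereas the most abundant member, miR-127-3p, had 56473 to 77215 CPM against 111448 to 168555 CPM without overlap. Its log2 fold change of -0.14 ± 0.09 did not pass with upper quartile scaling (edgeR adjusted p = 0.216), but it was lower with TMM (-0.46, 1.93e-04), DESeq2 (-0.32, 6.18e-04) and library totals (-1.01, 3.29e-07).

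The let-7 family, which keeps cells differentiated, was higher almost throughout with upper quartile scaling. Of 19 members and strands tested, 17 rose and none fell, 10 of them under all 4 scalings, beside 33.2% and 15.5% of all names. Their median was 1.17 against 0.26 for all names, and 0.29 against -0.61 with library totals. In CPM, 6 lay higher in every cerebellum library, beside 9.38% of all names. The 9 tested names with the let-7 seed all rose with upper quartile scaling, 7 of them under all 4. let-7a-5p had 8996, 11516 and 13170 CPM in cerebellum against 4201, 6059 and 7175 CPM in cerebrum (1.77 ± 0.14). let-7g-5p (1.64 ± 0.10) and let-7c-5p (1.54 ± 0.11) did not overlap either, whereas let-7f-5p did (1.17 ± 0.13).

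All 11 members of the miR-30 family rose with upper quartile scaling, 4 of them under all 4 scalings, beside 33.2% and 15.5% of all names. Their median was 1.04 against 0.26 for all names, and 0.17 with library totals. Of the miR-15/16 family, 7 of 11 members rose and 1 fell, 6 and 1 under all 4 scalings, where 25% of all names fell. Beside miR-195 and miR-497, miR-16-5p had 11870, 13145 and 14084 CPM against 5763, 6812 and 7385 CPM (1.82 ± 0.08). miR-322-5p, an X-linked member with the same seed, changed by -0.65. Of the miR-181 family 5 of 8 rose, 2 under all 4 scalings, the latter being miR-181a-5p and miR-181c-5p (1.55 ± 0.09), beside 33.2% and 15.5% of all names. In CPM, 2 of the 8 lay higher and 3 lower in every cerebellum library.

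The miR-17-92 clusters and their paralogs, tied to proliferation, went both ways. Of 15 members 5 rose and 6 fell, 2 and 6 under all 4 scalings. The share that rose is near the 33.2% (15.5%) of all names, and 25% of all names fell. Rising under all 4 were miR-25-3p (1.32 ± 0.09) and miR-106b-3p (1.45) of the miR-106b-25 cluster. miR-93-5p of the same cluster had 236 to 319 CPM in cerebellum and 412 to 497 CPM in cerebrum, with a log2 fold change of 0.15 ± 0.08 that turned to -0.73 with library totals. Lower were miR-17-5p (-0.98), miR-20a-5p (-0.60) and miR-92a-3p (-1.01 ± 0.11), beside miR-92b-3p from its own locus. So within the shared seed of miR-92a, miR-92b and miR-25, members went in opposite directions, with miR-92a-3p at 310.2 to 562 CPM in cerebellum and 1530 to 2303 CPM in cerebrum, and miR-25-3p at 656 to 1035 and 606 to 726 CPM.

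The remaining families were mixed, beside 33.2% of all names higher and 25% lower (15.5% and 25% under all 4 scalings). Of the miR-99/100 and miR-125 families 7 of 11 rose and 2 fell, 3 and 2 under all 4 scalings, with miR-99b-5p (1.65 ± 0.11) and miR-125a-5p, which share a transcript, among those higher and miR-125b-5p lower (-0.22 ± 0.08), a call lost in 7 of the 10 fits that left out 1 rat. Of the miR-23/27/24 clusters 4 of 8 rose and 3 fell, and only the falls held under all 4 scalings, miR-27b-3p and miR-23b-3p both turning from 0.34 to -0.54 and -0.53 with library totals. Of the miR-29 family 3 of 7 rose and 1 fell, and again only the fall held, that of miR-29b-3p (-0.56 ± 0.18). The cerebrum library of rat 9 held 139 CPM, below the cerebellum range of 146 to 206 CPM, where the next lowest cerebrum library held 414 CPM.

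Markers of other cells that such dissections can hold were compared as whole lists. With upper quartile scaling 33.2% of all names rose and 25% fell, with 15.5% and 25% under all 4 scalings. Of the 5 oligodendrocyte names tested, 1 rose and 1 fell, both under all 4 scalings, which is near those shares. The rise was miR-219a-1-3p, at medians of 5.05 and 3.51 CPM. The fall was miR-219a-2-3p, with 244, 319 and 375 CPM in cerebellum against 736, 957 and 1115 CPM in cerebrum (-0.71 ± 0.08). In CPM, 2 of the 5 lay lower in every cerebellum library and 0 lay higher, beside 32.9% of all names lower. These were miR-219a-2-3p and miR-338-5p, the latter at 100.4 to 174 CPM against 197 to 308 CPM. miR-338-3p overlapped but was lower with library totals (-0.55, edgeR adjusted p = 0.00196). The summed oligodendrocyte level was 1883 to 3155 CPM against 2682 to 5484 CPM. Endothelium (miR-126a, 2 tested), smooth muscle (miR-143 and miR-145, 4 tested) and epithelium (2 tested) had no name past the threshold with upper quartile scaling, and log2 fold changes of their members turned sign with the scaling. With library totals both miR-126a strands (adjusted p = 2.35e-06 for miR-126a-3p and 6.57e-05 for miR-126a-5p in edgeR) and all 4 smooth muscle names, miR-143-3p (6.08e-05) and miR-145-5p (0.00145) among them, were lower. miR-126a-3p was also lower with TMM (0.0106). The summed endothelial level was 2995 to 4853 CPM against 3165 to 8220 CPM, that of smooth muscle 9942 to 17218 against 13222 to 27597 CPM, and that of epithelium 4.73 to 17.9 against 6.3 to 73.6 CPM.

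Of the 9 blood names tested 6 rose and none fell, 2 under all 4 scalings, namely both single names of miR-486, beside 33.2% and 15.5% of all names. Their summed level, without the composite name, was 1050 to 1615 CPM in cerebellum and 1292 to 3130 CPM in cerebrum. The part of blood in the miR-486 result was not tested. Of the 8 choroid plexus names tested 4 rose, 3 under all 4 scalings, with a summed level of 7239 to 20244 CPM against 2129 to 3126 CPM that consists mostly of miR-204-5p. miR-449a-5p had 4.59 to 7.69 CPM against 1.62 to 5.6 CPM (1.74 ± 0.21). miR-211-5p, in contrast, had a median of 3.16 CPM in cerebellum and 11.8 CPM in cerebrum, with 1 cerebellum library (rat 10) at 239 CPM.

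That library also held 6521 CPM of miR-182 and 1066 CPM of miR-183-5p, miRNAs of a cluster used by sensory neurons, retina and pineal gland. The next cerebellum libraries were at 415 and 46.1 CPM. Both names rose under all 4 scalings, beside 15.5% of all names. miR-182 had 119, 182 and 6521 CPM against 35.4, 55.8 and 244 CPM (2.68 ± 0.57, edgeR adjusted p = 0.00141), and leaving out 1 rat at a time gave 2.35 to 2.94. Of the 3 muscle names tested 2 rose and 0 fell with upper quartile scaling, 1 under all 4 scalings, beside 33.2% and 15.5% of all names. Of those that rose, miR-499-5p overlapped at 9.57 to 24.4 CPM in cerebellum against 7.25 to 33.7 CPM. miR-206-3p had 13.8, 19.9 and 22.8 CPM against 0.617, 2.32 and 7.22 CPM (4.03 ± 0.34). miR-133a-3p, which is muscle's own as well, went the other way in CPM at medians of 80.9 and 202, and was lower with TMM (-0.79, edgeR adjusted p = 0.0437), DESeq2 (-0.64, 0.0446) and library totals (-1.34, 0.00213) but not with upper quartile scaling (-0.46, 0.199). Of the 2 Hox cluster names tested, both rose, beside 33.2% of all names. miR-10a-5p had 309, 422 and 782 CPM against 114, 213 and 367 CPM (2.01 ± 0.15).

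The brainstem and hippocampus of the same rats show whether a difference sets the cerebellum or the cerebrum apart. Of the 10 hippocampus libraries, those of rats 2, 6 and 7 held 0.568, 4.05 and 2.38 CPM of miR-124-3p, against 4054 to 6423 CPM in the other 7, so they go against their label. Counts are given with and without them, and hippocampus CPM values cover the other 7. Of the 10 brainstem libraries that of rat 9 stood apart. It held 766 CPM of miR-10b-5p, 728 of miR-10a-5p, 98 of miR-182 and 10.2 of miR-183-5p, where the other 9 held at least 9701, 9684, 4574 and 698 CPM. These contrasts share the cerebellum libraries with the comparison above and are not independent of it. In a fit of all 40 libraries cerebellum had 182 names (25.5%) higher and 105 (14.7%) lower than brainstem, and 153 (21.4%) higher and 103 (14.4%) lower than hippocampus. Without the 3 libraries the counts were 236 (31.3%) and 208 (27.6%) against brainstem, and 235 (31.2%) and 182 (24.1%) against hippocampus. For cerebrum they were 138 (18.3%) higher and 216 (28.6%) lower than brainstem, and 42 (5.57%) and 75 (9.95%) against hippocampus, from 55 (7.7%) and 102 (14.3%), and 31 (4.34%) and 108 (15.1%), with all 40. Without the brainstem of rat 9 as well, a fit chosen after seeing the data, cerebellum had 228 (30.4%) higher and 210 (28%) lower than brainstem, and 239 (31.8%) and 186 (24.8%) against hippocampus. Cerebrum then had 140 (18.6%) and 225 (30%) against brainstem, and 53 (7.06%) and 81 (10.8%) against hippocampus.

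Of the 94 names higher in cerebellum than cerebrum under all 4 scalings, 71 were also higher than in both other regions (86 without the 3 libraries, 85 without the brainstem of rat 9 as well). Of the 152 lower names, 35 were also lower than in both (97 and 95). Of all names tested with all 40 libraries, 25.5% were higher in cerebellum than brainstem and 21.4% than hippocampus, and 14.7% and 14.4% were lower. The share of all names that differed from both was not counted. Since the names were chosen in the same cerebellum libraries, these counts cannot show how much of the overlap that choice produced. miR-195-5p, at 1874 CPM or more in cerebellum, had 177 to 384 CPM in brainstem and 314 to 386 CPM in the 7 hippocampus libraries. miR-222-3p had 219, 285 and 861 CPM in brainstem, where rat 9 was the highest and the next held 307 CPM, and 2695, 3400 and 3840 CPM in hippocampus, so brainstem lay between the tissues, and hippocampus overlapped cerebrum (edgeR adjusted p = 0.947 with all 40 libraries, 0.0629 without the 3 and 0.0258 without the brainstem of rat 9 as well). miR-132-3p, with 684, 743 and 1687 CPM in brainstem and 1405, 1645 and 2155 CPM in hippocampus, was highest in cerebrum. Cerebrum lay above hippocampus by 1.62 on the log2 scale without the 3 libraries (adjusted p = 2.93e-10) and by 2.20 with them. Cerebellum lay below brainstem without the 3 libraries (-0.77, edgeR adjusted p = 9.62e-07), a call not made with all 40 (-0.71, 0.0823).

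miR-873-5p had medians of 149.7 CPM in brainstem and 179 CPM in the 7 hippocampus libraries. Cerebrum lay above both without the 3 libraries (edgeR adjusted p = 1.31e-09 and 1.71e-05), and neither call was made with all 40 (0.113 and 0.0535). miR-124-3p had 1908, 2387 and 3507 CPM in brainstem and 4054, 4999 and 6423 CPM in hippocampus, which did not differ from cerebrum beyond the spread (0.05, adjusted p = 0.802 without the 3 libraries and 0.441 with them). Not every difference singled out the cerebellum. miR-10b-5p had 9701 to 16070 CPM in 9 brainstem libraries, 663 to 1310 CPM in cerebellum and 48.5 to 165 CPM in the 7 hippocampus libraries, whereas the brainstem of rat 9, at 766 CPM, lay within the cerebellum range. Cerebellum was lower than brainstem (edgeR adjusted p = 2.74e-08) and higher than hippocampus (1.79e-09) without the 3 libraries, which held 148573, 5292 and 136899 CPM. With all 40 neither call was made (0.0733 and 0.522). miR-128-3p was lower in brainstem, with a median of 5384 CPM, than in cerebellum (log2 fold change of cerebellum over brainstem 1.95 without the 3 libraries, adjusted p = 4.28e-13). miR-204-5p reached 25458 CPM in 1 brainstem library, above the highest cerebellum library, with a brainstem median of 6577 CPM.

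**Figure D3:**
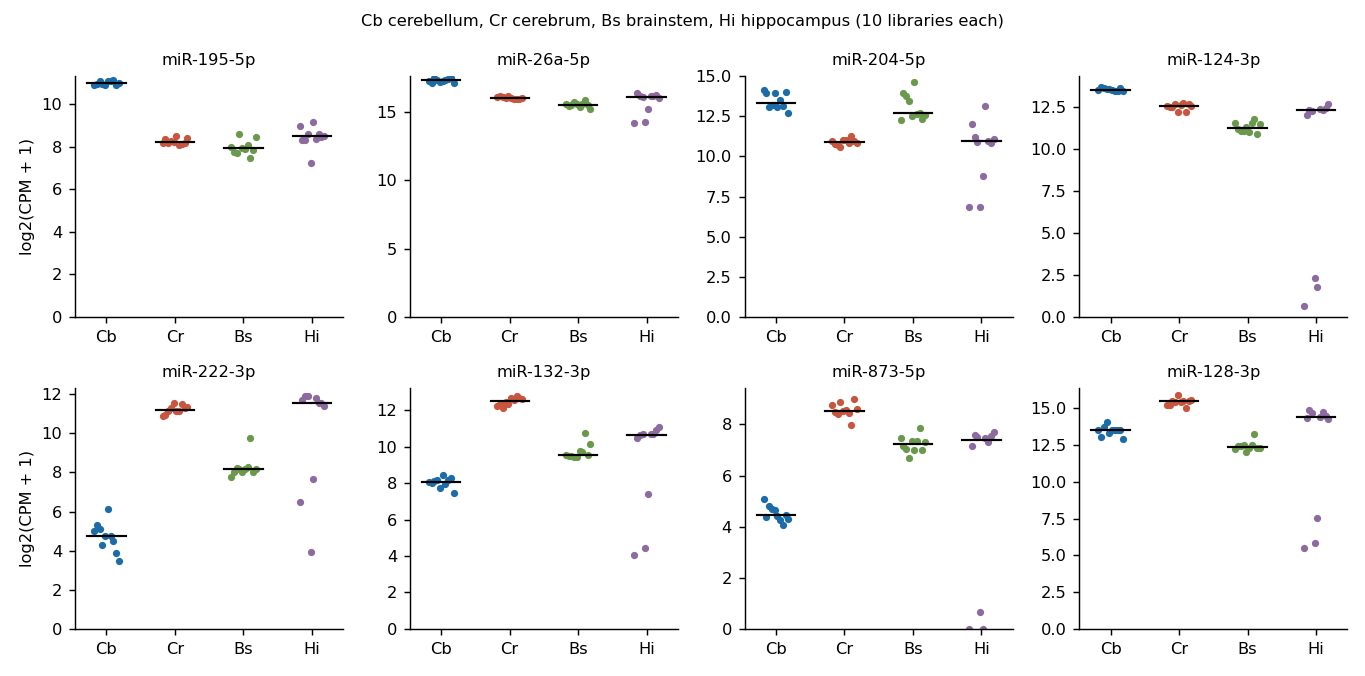
Log2(CPM + 1) of 8 miRNAs in cerebellum (Cb), cerebrum (Cr), brainstem (Bs) and hippocampus (Hi), with 1 point per library, 10 per region, and a bar at the median. miR-195-5p and miR-26a-5p are highest in cerebellum and miR-132-3p and miR-873-5p in cerebrum, and 3 hippocampus points, of rats 2, 6 and 7, lie far below the others for miR-124-3p.

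Counting reads by their own seed avoids the choice between the names of a composite. Of 1019 seeds tested with the rat as a block, 290 (28.5%) were higher and 250 (24.5%) lower in cerebellum. Under upper quartile, TMM and DESeq2 scaling and without the shifted run, 259 (25.4%) and 244 (23.9%) held. Library totals, the scaling that called the fewest names higher, were not fitted for seeds. By difference in CPM, the seed of miR-26a, UCAAGUA, led the rises with 143534, 164490 and 184433 CPM against 29596, 69463 and 75752 CPM (2.04 ± 0.13). The lowest of these is the cerebrum of rat 9, where the shifted run moves reads to another seed. The seeds of miR-181, ACAUUCA (1.39 ± 0.12), of let-7, GAGGUAG (1.38 ± 0.12), of miR-30, GUAAACA (1.10 ± 0.09), and of miR-486-5p (3.88 ± 0.11) followed. Among the falls, AGCUGCC of miR-22 had 27861, 33930 and 36209 CPM against 49285, 97766 and 107473 CPM (-0.81 ± 0.08). The shared seed of miR-221 and miR-222, GCUACAU, changed by -5.60 ± 0.28. That of miR-92 and miR-25, AUUGCAC, changed by -1.45 ± 0.12, with 1631, 3058 and 3413 CPM against 9835, 13098 and 15697 CPM.

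The start of a miRNA sets its seed, and several miRNAs used their starts differently in the tissues. For 196 single names with at least 100 reads in every library, the share of reads away from the usual start (the base where most reads of a name start) was compared by an exact two-sided sign-flip test over the 10 rats, whose smallest p is 0.00195, with Benjamini-Hochberg adjustment. With all runs, 0 names (0%) had a higher and 39 (19.9%) a lower share in cerebellum. Without the shifted run, 14 (9.86%) of 142 names had a higher and 31 (21.8%) a lower share. A count of 0 with all runs therefore rests on the cerebrum of rat 9, and values without the run follow.

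miR-140-3p, a cartilage-enriched strand read from more than 1 start, had 47.6, 49.1 and 54.6% of its reads away from the usual start in cerebellum and 36.7, 39.4 and 45.8% in cerebrum. The difference was 9.48 ± 3.27 percentage points (SD of the paired difference, 10 of 10 rats, exact adjusted p = 0.00867), and with all runs it was 6.53 with an exact adjusted p of 0.146. Its most frequent and next most frequent starts, taken from the deposited isomiR counts, are shown with the seed in capitals, and the latter held 38.8% of the reads.
miR-140-3p, most frequent start: aCCACAGGgtagaaccacggac
miR-140-3p, start 1 base earlier: tACCACAGggtagaaccacggaa

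miR-124-3p had 29.7, 31 and 32.4% away from the usual start in cerebellum and 24.9, 26 and 27% in cerebrum, without overlap (5.15 ± 1.26 percentage points, 10 of 10 rats, exact adjusted p = 0.00867). With all runs the difference was 1.53 and did not pass. The next most frequent start, 1 base earlier, held 29.2% of its reads. miR-409a-3p (5.76 ± 2.39), miR-338-5p (5.04 ± 2.26) and miR-30a-3p (4.62 ± 1.84) went the same way, and miR-30a-3p turned to -0.929 with all runs. In the other direction, miR-136-5p had 10.8, 12 and 14.2% in cerebellum against 19.5, 25.1 and 45.1% in cerebrum, a difference of -14.2 ± 6.57 without the run and -17.3 ± 16.2 with it, in 10 of 10 rats. The 45.1% is rat 9, whose remaining run also stood apart here, with the next cerebrum library at 27.3%. miR-3068-3p changed by -10.6 ± 4.22, with rat 9 again the highest in cerebrum at 56.2% and the next at 47.5%, and miR-300-3p by -5.38 ± 1. miR-187-3p (-9.04 ± 15.2) and miR-369-3p (-8.86 ± 14.6) were among the largest with all runs and had too few reads to test without the shifted run. Without rat 9 they were -4.28 and -4.31.

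**Figure D4:**
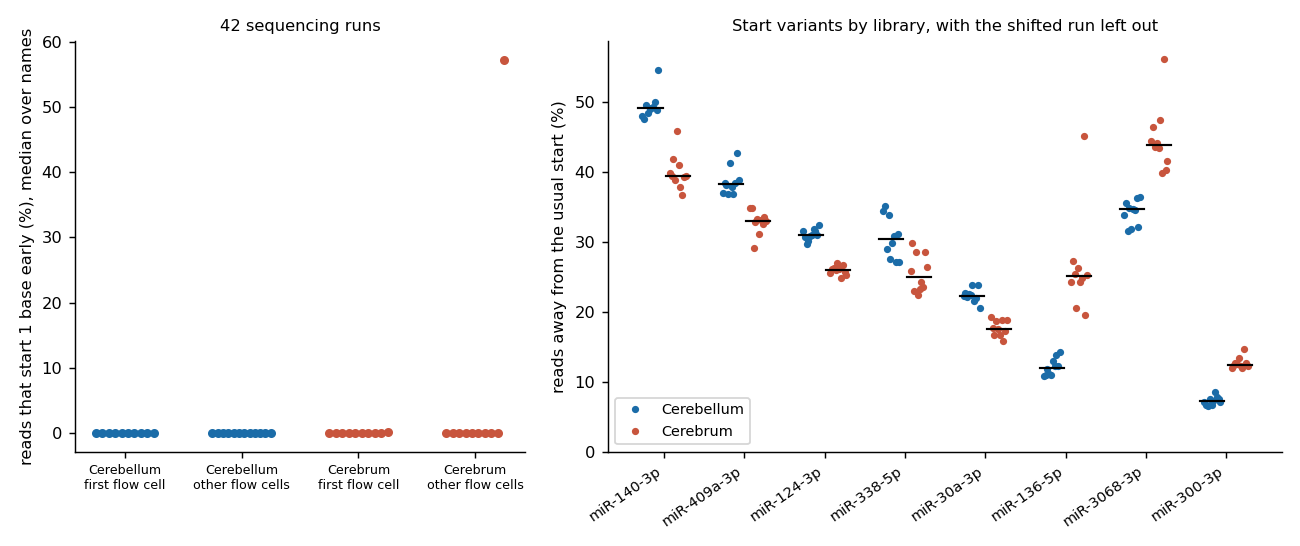
Left, median share of reads that start 1 base early in each of 42 sequencing runs, where 1 cerebrum run lies at 57.2% and every other run at or below 0.0822%. Right, share of reads away from the usual start for 8 miRNAs without that run, with 1 point per library and a bar at the median; miR-140-3p and miR-124-3p lie higher in cerebellum and miR-136-5p lower.

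The 3' ends differed too. By the same exact test, the mean last base lay later in cerebellum for 38 of 196 names (19.4%) and earlier for 66 (33.7%), and without the shifted run for 27 (19%) and 53 (37.3%) of 142. miR-30d-5p ended at a mean position of 22.4, 22.4 and 22.5 in the lowest, median and highest cerebellum library and at 22.9, 23.1 and 23.2 in cerebrum, a difference of -0.652 ± 0.114 bases in 10 of 10 rats (exact adjusted p = 0.00617). miR-30a-5p, of the same family, ended earlier as well (-0.64 ± 0.134), as did miR-598-3p (-0.689 ± 0.262), miR-668 (-0.606 ± 0.25) and miR-361-3p (-0.514 ± 0.102). The extensions were smaller, led by miR-130a-3p (0.278 ± 0.108) and miR-134-5p (0.254 ± 0.166), and then miR-671 (0.213), miR-106b-5p (0.204) and miR-136-5p (0.196).

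The share of the 5p arm in the reads of a hairpin was compared for 135 hairpins with at least 100 reads in every library. It was higher in cerebellum for 22 (16.3%) and lower for 25 (18.5%), and without the shifted run for 21 (19.6%) and 18 (16.8%) of 107. For miR-376b of the Dlk1-Dio3 locus, the arm with more counted reads differed between the tissues. Its 5p share was 56.4, 59.9 and 67.6% in cerebellum and 24.3, 34.5 and 38.1% in cerebrum. The difference was 26.7 ± 6.48 percentage points in 10 of 10 rats (exact adjusted p = 0.012). Only reads under single mature names were counted. The paper states that ligase bias affected the amounts its sequencing gave, so which arm is more abundant in a tissue was not tested. The 3p strand of miR-376b fell (-1.61 ± 0.14 on the log2 scale), also under all 4 scalings. Its 5p strand did not pass the test with upper quartile scaling (-0.02 ± 0.17). That scale lay a median of 0.87 above library totals over all names, so the 5p strand is not shown to be unchanged in CPM. miR-369 of the same locus went the other way, with 43.7, 50.6 and 57.8% against 60.4, 65.4 and 87.7% (-16.6 ± 8.66).

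Smaller rises of the 5p share were found for miR-376a (9.48 ± 6.61), miR-361 (9.48 ± 4.41), miR-136 (8.44 ± 1.9) and miR-325 (8.43 ± 4.46). Falls were found for miR-339 (-11.5 ± 5.82), miR-874 (-8.61 ± 3.13), miR-423 (-8.3 ± 2.12) and miR-106b (-6.19 ± 5.46), the latter lost in 7 of the 10 tests that left out 1 rat. Of these, miR-361, miR-136 and miR-423 did not overlap between the tissues.

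**Figure D5:**
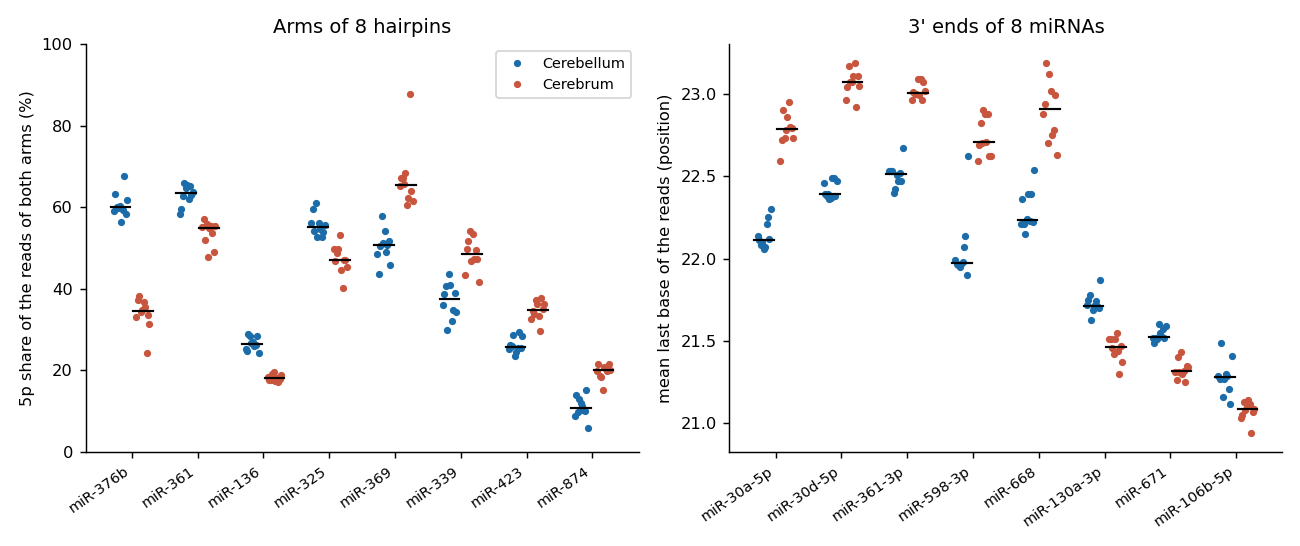
Left, 5p share of the reads of both arms for 8 hairpins. Right, mean last base of the reads for 8 miRNAs; both show 1 point per library, 10 per tissue, with a bar at the median, and miR-376b and miR-30d-5p separate the tissues completely.

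No difference between the tissues was found to depend on sex. The interaction of sex and tissue passed for 0 of 608 names (0%) by edgeR's quasi-likelihood test, with 8 names at an unadjusted p under 0.05, and for 0 by DESeq2, with 13. With 5 rats per sex this does not show that the sexes act alike.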

How the data were processed

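Per the labels and the study's methods, RNA was ligated with the TruSeq small RNA kit and sequenced on a HiSeq2000. The authors trimmed adapters with cutadapt 1.4.1, discarded short reads and those with an undetermined base, and assigned reads with miRDeep2 to rat miRNAs of miRBase, then to those of other species and to predicted hairpins. The deposited values are counts per name, not normalized, and isomiR counts per sequence, of which the 414 columns of other tissues were not used. For all 7534 names the isomiR sums equalled the count.

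Here 42 runs of the 2 tissues were summed per library, leaving out 2 deposited repeats of a lane. Names were filtered with filterByExpr and tested in edgeR 4.0.16 (R 4.3.3) with upper quartile factors, tissue as the term and the rat as a block, and Benjamini-Hochberg adjustment at 0.05. Pairing comes from the animal number in the labels. The deviations of the 2 tissues of a rat correlated at -0.457 to 0.541, against medians of -0.1985 to 0.1357 with the tissues of other rats. Some rats lay above and others below their median with other rats, so the pairing rests on the labels. Ends and arms were tested by an exact sign-flip test in Python 3.11.15. DESeq2 1.42.0, TMM, library totals, no filter, no block, all tissues, flow cells, read minimums and leaving out each rat were alternatives. On simulated counts of 595 names with 97 changed by 1 and 95 by 2 on the log2 scale, all were recovered. Upper quartile scaling also called 12.4% of the unchanged names (TMM 1.24%), which is why calls under all 4 scalings are given. Unchanged names had a median of -0.197 there, whereas in the data upper quartile values lay above those of TMM. The simulated dispersion was fixed at 0.05, so 12.4% is not the error rate of the calls above.

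Named miRNAs were single mature names past the threshold with a mean of at least 20 CPM and no overlap, the 12 with the largest change in each direction. Added were the 5 with the largest CPM difference in each direction, the 2 markers, and the most abundant members of 22 lists. Others named in the lists, miR-3107-5p;miR-486-5p and the members given as examples among them, were chosen after their values were seen. The members and lists were chosen with earlier results of these data known. The labels give 1 library per rat and tissue, so p-values measure the spread across rats of the difference between tissues. The spread between rats cannot be told apart from that of dissection, RNA preparation and library.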

Additional observations from a re-analysis of the deposited data

Results flagged for a closer look

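In 51 of 238 groups of 10 libraries tested by Dixon's criterion at its 95% level, the highest or lowest library lay far from the rest. Chance flags about 1 in 20 groups. The cerebrum of rat 9, which holds the shifted run, accounts for 24 of them. The share of its reads away from the usual start was 62.9% for miR-124-3p, 76.6% for miR-136-5p, 66.2% for miR-140-3p, 59.5% for miR-187-3p, 49.6% for miR-300-3p, 72.3% for miR-3068-3p, 71.3% for miR-30a-3p, 68.3% for miR-338-5p, 63% for miR-369-3p and 67.1% for miR-409a-3p. All 10 were the highest of their group. Its miR-136-5p ended earliest, at a mean of 20.2, and its 5p share was 87.7% for miR-369 and 24.3% for miR-376b. Without the shifted run the library still had 20.2, 87.3% and 24.3% for these. It was the highest cerebrum library for miR-127-3p (168555 CPM), miR-344a-3p (16.2 CPM) and miR-486-5p (967 CPM, next 25 CPM, and 39.7 CPM in its first run alone). It was the lowest for miR-9a-5p (18611 CPM), let-7g-5p (5557 CPM), let-7a-5p (4201 CPM), miR-126a-5p (2006 CPM), miR-192-5p (612 CPM), miR-15a-5p (254 CPM), miR-29b-3p (139 CPM) and miR-376b-5p (75 CPM).

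The cerebellum of rat 10 stood apart for miR-182 (6521 CPM), miR-183-5p (1066 CPM) and miR-211-5p (239 CPM), each the highest. The cerebellum of rat 11 was the highest for miR-181c-5p (11427 CPM) and the lowest for miR-434-3p (5839 CPM), miR-92b-3p (675 CPM), miR-25-3p (656 CPM), miR-23b-3p (576 CPM), miR-92a-3p (310.2 CPM) and miR-486-3p (31.5 CPM). Its reads of miR-361-3p and miR-598-3p ended latest, at means of 22.7 and 22.6, and 54.6% of its miR-140-3p reads lay away from the usual start. The cerebrum of rat 2 was the highest for miR-182 (244 CPM), miR-183-5p (38 CPM), miR-200b-3p (13.2 CPM) and miR-141-3p (11.7 CPM), and that of rat 8 for miR-133a-3p (866 CPM) and miR-206-3p (7.22 CPM).

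Single values that lay apart were miR-7a-5p in the cerebellum of rat 2 (63.9 CPM), miR-133a-3p in that of rat 5 (245 CPM), miR-222-3p in that of rat 7 (69.8 CPM) and miR-192-5p in that of rat 9 (2303 CPM, lowest). In the cerebellum of rat 6, 8.71% of miR-369-3p reads lay away from the usual start, the lowest. In cerebrum they were miR-187-3p in rat 5 (52.3 CPM, lowest), miR-195-3p in rat 6 (19.3 CPM) and the 5p share of miR-874 in rat 6 (15.1%, lowest).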

How the results depend on the processing

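Without the replicate block, that is without pairing by rat, 225 names were higher and 166 lower in cerebellum, with 299 and 301 seeds. The count of higher names moved most, from 202 to 94 with library totals (and to 94 under all 4 scalings), 37 with no filter on low counts (4050 names tested) and 107 on the first flow cell alone (379 tested). Lower names moved to 333 with library totals. With no filter 27 of 89 named miRNAs kept their sign but lost their call, and 11 more turned sign. Leaving out 1 rat gave 196 to 219 higher and 141 to 165 lower names. Against the other regions, leaving out 3 hippocampus libraries gave 208 lower than brainstem, 235 and 182 higher and lower than hippocampus for cerebellum, and 138 and 216 for cerebrum against brainstem. Leaving out the brainstem of rat 9 too, chosen after seeing the data, gave 210, 239 and 186, and 140 and 225, with 53 higher in cerebrum than hippocampus. TMM gave 50 and 64 for cerebrum against hippocampus. For starts, leaving out 1 rat gave 0 to 20 higher names, with 20 without rat 9, and leaving out the shifted run gave 14.

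The following log2 fold changes turned sign. With library totals they were miR-9a-5p -0.10, miR-34c-5p -0.16, miR-451-5p -0.13, miR-338-3p -0.55, miR-150-5p -0.70, miR-126a-5p -0.72, miR-126a-3p -0.78, miR-143-3p -0.69, miR-145-5p -0.74, miR-200b-3p -0.55, miR-141-3p -0.43, miR-27b-3p -0.54 and miR-23b-3p -0.53. With TMM they were miR-338-3p -0.01, miR-150-5p -0.16, miR-126a-5p -0.17, miR-126a-3p -0.23, miR-143-3p -0.14, miR-145-5p -0.19 and miR-200b-3p -0.01, and with DESeq2 miR-150-5p -0.01, miR-126a-5p -0.02, miR-126a-3p -0.08 and miR-145-5p -0.04. With no filter they were miR-338-3p -0.43, miR-34c-5p -0.04, miR-150-5p -0.53, miR-126a-5p -0.60, miR-126a-3p -0.63, miR-143-3p -0.53, miR-145-5p -0.57, miR-200b-3p -0.48, miR-141-3p -0.32, miR-27b-3p -0.39 and miR-23b-3p -0.38. With all tissues in 1 fit they were miR-338-3p -0.06, miR-211-5p 1.70, miR-150-5p -0.14, miR-126a-5p -0.25, miR-126a-3p -0.24, miR-143-3p -0.17, miR-145-5p -0.24 and miR-141-3p -0.06. On the first flow cell they were miR-150-5p -0.15, miR-126a-5p -0.21, miR-126a-3p -0.25, miR-143-3p -0.20, miR-145-5p -0.14 and miR-23b-3p -0.02. With single mature names alone they were miR-126a-3p -0.04 and miR-145-5p -0.01, without the block miR-211-5p 2.12, on the other flow cells miR-29a-3p 0.00 and miR-376b-5p 0.04, and in the rats with a shared second flow cell miR-344a-3p 0.06. The start share of miR-338-5p was -0.469 percentage points on the other flow cells, and that of miR-30a-3p 4.62 without the shifted run. Leaving out 1 rat moved miR-29a-3p between -0.10 and 0.02, miR-376b-5p between -0.15 and 0.07, the start share of miR-30a-3p between -1.82 and 4.45 and that of miR-338-5p between -0.331 and 5.21. The calls of miR-125b-5p and of the arm share of miR-106b were each lost in 7 of the 10 fits without 1 rat. For these reversals the cause was not tested. The lowest library total, 2207930 counts in the cerebellum of rat 3, limits names of few counts.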
